A study of Mus musculus with 3 samples.

Results

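Cadherins, claudins and connexins are the adhesion, sealing and channel proteins that join epithelial cells to each other. Their genes were measured here in mouse otic placodal ectoderm, the head ectoderm that forms the inner ear, with and without the fibroblast growth factors Fgf3 and Fgf10. The genes were taken by their names on the array: those beginning with Cldn, Cdh, Dsg, Dsc, Gja, Gjb, Gjc or Tjp and a digit, together with Ocln, Dsp and Jup. The array held 121 probes for 76 such genes, and 60 probes for 43 genes passed a filter on dim signal, as did 25506 of all 41174 probes (the filter asks that 1 genotype's channel be well above background on every array). The double heterozygote (Fgf3+/-;Fgf10+/-) kept 1 working copy of each gene and so also carried both null alleles, and the double null (Fgf3-/-;Fgf10-/-) had no working copy. Embryos were at the 4 to 8 somite stage, were not treated, and gave 3 biological pools of 10 placodes per genotype. Each array compared 1 pool of each genotype, with the double heterozygote always in Cy3 and the double null always in Cy5, and any dye effect cannot be told apart from the genotype. The sources used here do not give the strain or the deleted part of either allele.

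Epithelial cells adhere through adherens junctions, where classical cadherins bind their like on the next cell and catenins tie them to actin. Tight junctions seal the space between cells with claudins and occludin, which scaffold proteins of the Tjp (ZO) family hold in place, and desmosomes link keratin filaments through desmogleins, desmocollins, plakoglobin (Jup) and desmoplakin (Dsp). Connexins of the Gja, Gjb and Gjc groups form gap junction channels, and Gjb2 and Gjb6 are known for their later role in the cochlea. E-cadherin (Cdh1) marks surface ectoderm and its placodes, N-cadherin (Cdh2) marks neural tissue, and Cdh5 and Cldn5 mark endothelium.

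The probes of 5 members are printed to show which bases on the array gave their values; each reads without a stop codon in at least 1 forward frame, and their place in the transcript was not worked out. The probes of Cldn7 and Cldn10 gave log2 ratios among the lowest of all members. Those of Cldn9 and Cldn14 gave -0.13 and 0.070, and that of Cdh20 gave a lower ratio than a second probe of its gene. All are in lower case, 5′ to 3′, as deposited.
Cldn7, chr11:70048852-70049161 of mm7, plus strand: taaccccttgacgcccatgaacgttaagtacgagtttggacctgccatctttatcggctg
Cldn10, chr14:113277851-113277910 of mm7, plus strand: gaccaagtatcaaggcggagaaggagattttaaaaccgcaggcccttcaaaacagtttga
Cldn9, chr17:21863076-21863135 of mm7, minus strand: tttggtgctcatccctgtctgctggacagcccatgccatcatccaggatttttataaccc
Cldn14, chr16:93985721-93985780 of mm7, minus strand: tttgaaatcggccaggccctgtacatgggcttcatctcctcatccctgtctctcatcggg
Cdh20, chr1:104893471-104893530 of mm7, plus strand: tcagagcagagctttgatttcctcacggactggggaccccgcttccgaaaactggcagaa
The deposited position of the 60-base Cldn7 probe spans 310 bases; this is more than the probe's own length, while the other 4 span 60 bases each.

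None of the 43 genes passed the test. The largest ratios were those of Cldn4 (-0.79), Cdh5 (0.67) and Cldn5 (0.60), and most others were small. With limma, 0 of the 60 member probes had an adjusted p under 0.05, while 384 of all 25506 probes did (1.51%; 0.29% lower and 1.22% higher in the double null). At an unadjusted p under 0.05, 9 member probes were lower (15% of the members, against 8.37% of all probes) and 3 were higher (5%, against 11.9%). Limma with an intensity trend in its prior called 2 members, Cdh1 and Cldn7, both lower, and a separate-channel fit with no replicate block called 1, Cldn5, higher. The lowest adjusted p of any member was 0.078, for Cldn10. All log2 ratios are double null over double heterozygote, with moderated standard errors and n = 3 arrays.

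The median log2 ratio of the members was -0.039, against 0.010 over all tested probes, and 39 of the 60 were below 0 (65%, against 46% of all probes). On the 3 arrays the member medians were -0.052, -0.025 and -0.018. A total of 20 members were below 0 on all 3 arrays (33.3%, against 19.2% of all probes) and 6 were above 0 on all 3 (10%, against 24.5%). In channel intensities, 5 member probes had every double null pool below every double heterozygote pool (6.97% of all probes did) and 2 had every pool above (9.52% of all probes). The median 95% interval of a member reached 0.15 to either side on the log2 scale, and for 55 of 60 the whole interval lay between -0.5 and 0.5.

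Cdh1, the adhesion protein of surface ectoderm, was the lowest of the cadherins. Its normalised log2 intensities were 12.76, 12.86 and 13.00 in the double heterozygote pools and 12.30, 12.64 and 12.77 in the double null pools of arrays 1 to 3. Every array thus had a lower double null value, although the genotypes overlapped slightly because the third double null pool lay above the first double heterozygote pool. The log2 ratio was -0.30 ± 0.065 (SE, n = 3) and a fold of 0.809, where limma gave an adjusted p = 0.0862 and a 95% interval from -0.46 to -0.15. The Cdh1 probe lies at chr8:105268557-105268616 of mm7.

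Several claudins known from epithelia had lower values in the double null on all 3 arrays. Cldn7, a claudin of early epithelia, had log2 intensities of 13.02, 12.98 and 13.18 in the double heterozygote pools and 12.41, 12.79 and 12.84 in the double null pools, with no overlap between genotypes. Its array ratios were -0.61, -0.18 and -0.34, with a mean of -0.38 ± 0.085 (SE, n = 3, fold 0.769, limma adjusted p = 0.0928). Cldn3, another epithelial barrier claudin, had log2 intensities of 9.36, 8.97 and 9.06 in the double heterozygote pools and 8.82, 8.84 and 8.69 in the double null pools, also without overlap. Its mean ratio was -0.35 ± 0.082 (SE, n = 3, fold 0.787, limma adjusted p = 0.101). For Cdh1, Cldn7 and Cldn3 alike, array 1 gave the lowest ratio and array 2 the one nearest 0.

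Cldn10, which forms ion-selective paracellular pores, was lower in the double null on each array. Its log2 intensities were 8.85, 9.33 and 9.01 in the double heterozygote pools and 8.66, 9.07 and 8.64 in the double null pools, so the ranges overlapped. The array ratios were -0.19, -0.26 and -0.36 and their mean was -0.27 ± 0.056 (SE, n = 3, fold 0.828, limma adjusted p = 0.078). Cldn23 had a mean ratio of -0.20 ± 0.072 (SE, n = 3, limma adjusted p = 0.204), with array ratios of -0.16, -0.050 and -0.38 and a mean of -0.10 without array 3.

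Cldn4 had the lowest mean ratio of all members and the widest spread. Its log2 intensities were 8.85, 8.08 and 9.17 in the double heterozygote pools and 7.11, 8.25 and 8.38 in the double null pools, lower on arrays 1 and 3 and slightly higher on array 2. The mean ratio of -0.79 ± 0.31 (SE, n = 3) had a 95% interval from -1.53 to -0.043 and limma adjusted p = 0.227. It was -0.31 without array 1 and -1.26 without array 2, and -1.15 with the scanner's processed signals. The Cldn3 and Cldn4 probes lie 41.8 kb apart on chromosome 5 (chr5:133958589-133958648 and chr5:133916757-133916816 of mm7).

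**Figure D1:**
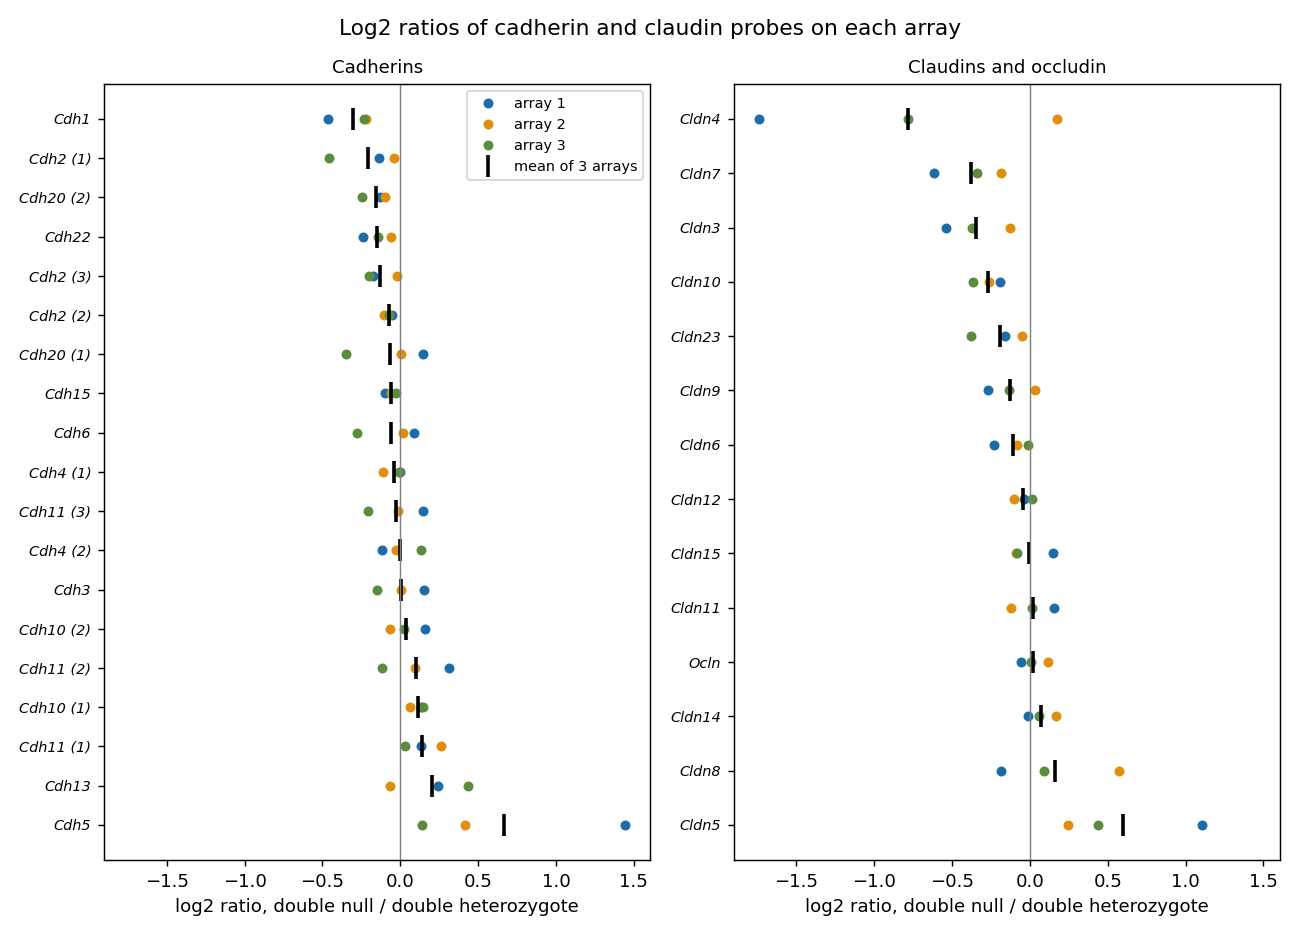
Log2 ratios (double null over double heterozygote) of the 19 cadherin probes and the 14 claudin and occludin probes, sorted by mean; each point is 1 array, the black bar is the mean of 3 arrays, and a number in brackets tells probes of one gene apart. Cldn4, Cldn7, Cldn3, Cldn10 and Cdh1 sit lowest, and Cldn5 and Cdh5 sit highest with array 1 far to the right of the others.

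Of the other claudins, Cldn5, a claudin of endothelium, was at 0.60, and the rest had means between -0.13 and 0.16. Cldn6 and Cldn9, a neighbouring pair of claudin genes whose probes are 1.1 kb apart on chromosome 17, had ratios of -0.11 ± 0.060 and -0.13 ± 0.068 (SE, n = 3, limma adjusted p = 0.346 and 0.349). The array ratios were -0.23, -0.086 and -0.014 for Cldn6, whose mean was -0.050 without array 1, and -0.27, 0.031 and -0.14 for Cldn9. Cldn12 was at -0.044, Cldn15 at -0.0070, Cldn11 at 0.017, Cldn14 at 0.070 and Cldn8 at 0.16. Cldn8 differed between arrays, at -0.19, 0.57 and 0.090. Occludin (Ocln), a membrane protein of the tight junction, was at 0.023 ± 0.055 (SE, n = 3) with a 95% interval from -0.11 to 0.16. Of 22 claudin and occludin genes on the array, 14 were tested, with 1 probe each and a family median of -0.077. At an unadjusted p under 0.05, 5 of these probes were lower and 1 higher (8.37% and 11.9% of all tested probes). The 5 include Cldn4, whose sign differed between arrays.

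The surface ectoderm list was read beside these genes. The 13 probes of the 9 listed genes had a median log2 ratio of -0.046 (array medians -0.17, 0.038 and -0.045), 10 of them below 0. Epcam, an epithelial adhesion gene, was at -0.14 ± 0.068 with array ratios of -0.30, 0.00027 and -0.13, and the brighter Krt8 probe at -0.16 ± 0.087 with -0.41, 0.038 and -0.11. Krt18 was at -0.036, Krt19 at 0.019, Trp63 at -0.027, Tfap2c at -0.046, Wnt6 at -0.0098 and -0.056, and both Tfap2a probes were above 0 on all 3 arrays (0.030 and 0.041). Summed over the list, intensities ran from 104495 to 114924 in the double heterozygote pools and from 96538 to 109522 in the double null pools. Such sums, here and below, weigh the brightest probes most (here Krt18 and Krt8) and do not measure numbers of cells. Their ranges over pools also leave out the pairing on arrays. Of the otic placode list, 7 of 9 genes were tested and all 10 of their probes had a mean below 0 (median -0.32), with array medians of -0.54, -0.12 and -0.32, again lowest on array 1 and nearest 0 on array 2. Its summed intensity was 22927 to 28369 in the double heterozygote pools and 17771 to 20311 in the double null pools. In that list 2 probes were called lower, as were 0.29% of all tested probes. They were those of Hmx2 (-0.59 ± 0.079) and the brightest of Sox9 (-0.69 ± 0.11), with limma adjusted p = 0.0229 and 0.0475. Other Sox9 probes were at -0.40 and -0.0040. The endoderm list had a median of -0.12 over 6 probes of 5 of the 7 listed genes (array medians -0.036, -0.25 and -0.12). Of these probes 4 were below 0 and 2 above, with Sox17 at -0.54 and -0.36 and Afp at 0.25. The Sox17 probe at -0.54 was called lower (limma adjusted p = 0.0155). Fewer ectodermal, placodal or endodermal cells in a pool and less RNA of these genes per cell cannot be told apart. The part of the marker genes in the Cdh1 and claudin values was not tested.

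The claudin and cadherin of endothelium stood at the other end. Cldn5, which seals endothelial tight junctions, had log2 intensities of 7.41, 7.84 and 7.89 in the double heterozygote pools and 8.51, 8.09 and 8.32 in the double null pools, without overlap. Its array ratios were 1.1, 0.25 and 0.44, with a mean of 0.60 ± 0.15 (SE, n = 3, fold 1.51, limma adjusted p = 0.117), which was 0.34 without array 1 and 0.93 with the processed signals. Cdh5 (VE-cadherin), the adherens junction cadherin of endothelium, had log2 intensities of 6.71, 7.26 and 7.74 in the double heterozygote pools and 8.15, 7.67 and 7.88 in the double null pools, overlapping because the second double null pool lay below the third double heterozygote pool. Its array ratios were 1.45, 0.42 and 0.14, with a mean of 0.67 ± 0.22 (SE, n = 3). That mean was 0.28 without array 1 and 1.59 with the processed signals, and Cy3 signal cleared background on 2 of 3 arrays. The probe thus passed the filter only through the double null, where it was higher, so its place among the 3 higher members is a description and not support for a difference. A second probe cleared it on 0 arrays in the double heterozygote and on 1 in the double null, and was not tested.

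The endothelial list had its highest median on array 1 as well. Of the 9 listed genes 7 were tested, with 7 of their 9 probes above 0 (median 0.17, array medians 0.44, 0.063 and 0.0060), and the probes of Pecam1 and Tie1 did not pass the filter. Emcn was at 0.67 (array ratios 1.58, 0.18 and 0.27), Kdr, a VEGF receptor gene, at 0.36 (1.16, -0.26 and 0.18) and Sox18 at 0.42 (0.89, 0.19 and 0.18). Tek was at 0.26 and Ramp2 at 0.13, while Cd34 was at -0.025 and the 3 Flt1 probes, from the brightest down, at -0.12, 0.10 and 0.17. The summed intensity of the list was 7177 to 9536 in the double heterozygote pools and 9225 to 10101 in the double null pools. Blood markers were uneven in another way, with array medians of 1.29, -0.22 and 2.20 over 4 probes of 3 of the 7 listed genes, and summed intensities of 987 to 1753 in the double heterozygote pools and 777 to 10011 in the double null pools. The part of endothelial cells in the Cldn5 and Cdh5 values was not tested. The connexins known from arterial endothelium had means nearer 0 than Cldn5 and Cdh5, and Gja4 was at 0.037 (0.29, -0.18 and 0.0056). The probes of Gja5 were at -0.084 (-0.013, -0.20 and -0.040) and 0.17 (0.38, -0.047 and 0.18). The latter had Cy3 signal clear of background on 1 array and passed the filter only through the double null.

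**Figure D2:**
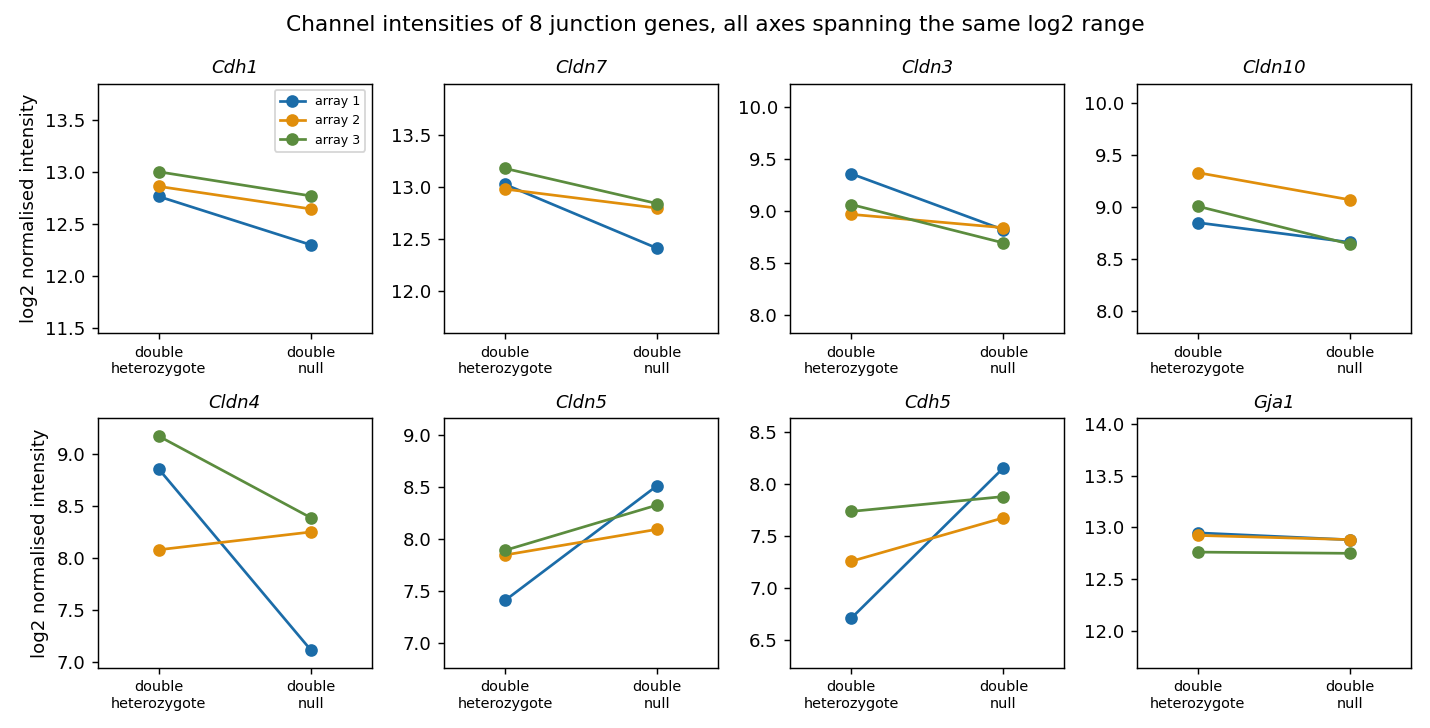
Normalised log2 intensity of 8 probes in the double heterozygote and double null pool of each array (lines join the pools of 1 array, n = 3 per genotype; each vertical axis spans the same range but is placed on its own probe, and levels of different genes are not comparable). Cdh1, Cldn7, Cldn3 and Cldn10 slope down on all 3 arrays, Cldn4 on arrays 1 and 3, Cldn5 and Cdh5 slope up, and Gja1 is level.

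Cdh2, the cadherin of neural tissue, had 3 tested probes, and all 3 were below 0 on every array. The brightest had log2 intensities of 12.45, 12.42 and 12.83 in the double heterozygote pools and 12.31, 12.38 and 12.38 in the double null pools, without overlap but with array 3 providing most of the difference. Its ratio was -0.21 ± 0.085 (SE, n = 3, limma adjusted p = 0.236), with array ratios of -0.14, -0.038 and -0.45 and a mean of -0.087 without array 3, and the other probes were at -0.13 ± 0.057 and -0.074 ± 0.049 (SE, n = 3). Cdh20, a cadherin of neural and neural crest tissue, had ratios of -0.16 ± 0.054 (limma adjusted p = 0.186) with the probe printed above and -0.066 ± 0.095 with its brighter probe, whose array ratios were 0.15, 0.0046 and -0.35. Cdh22 was at -0.15 ± 0.056 (limma adjusted p = 0.218).

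Neural lists were read beside these cadherins. All 8 neural plate genes were tested, with 7 of 8 probes below 0, a median of -0.12 and array medians of -0.21, -0.17 and -0.20. Their summed intensity was 40642 to 48947 in the double heterozygote pools and 35947 to 37966 in the double null pools. The 10 neural crest probes of all 6 listed genes had a median of -0.15 and array medians of -0.098, 0.0033 and -0.28, and summed intensities of 33877 to 46988 against 37654 to 39422. Their part in the Cdh2 and Cdh20 values was not tested.

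The other cadherins showed no common direction. Cdh11, a mesenchymal cadherin, had 3 probes at 0.14, 0.099 and -0.024, and its array ratios were lowest on array 3 for each of them. The head mesoderm list, by comparison, had a median of 0.13 over 12 probes of all 8 genes, with array medians of 0.33, -0.034 and 0.088. Of these probes 8 were above 0 and 4 below. Foxc1 (-0.17) and Tbx1 (-0.18) were below 0 on every array, while the Prrx1 probes were at 0.23, 0.20 and 0.32. The dimmer Pdgfra probe (0.14) passed the filter only through the double null. Cdh13, which is anchored to the membrane by a lipid, was at 0.20 ± 0.094 (array ratios 0.24, -0.069 and 0.43). Cdh3 (P-cadherin), an epithelial cadherin, was at 0.0026 ± 0.068 (SE, n = 3, 95% interval -0.16 to 0.17). Cdh15, the cadherin of muscle, was at -0.061 (array ratios -0.097, -0.058 and -0.027). The muscle and heart list had a median of 0.59 over 9 probes of all 7 genes, all above 0 (array medians 0.19, 0.48 and 0.97). Of these, 3 were called higher (1.22% of all tested probes were): that of Myod1 and both of Tnni1. Myod1, a muscle determination gene, was at 1.24 ± 0.061 (SE, n = 3, limma adjusted p = 0.0030). Tnni1 was at 1.15 with its brighter probe and 0.71 with the other. Cy3 signal of the brighter probe cleared background on 2 of 3 arrays. That probe thus passed the filter only through the double null, where it was higher, and its call is a description. The part of muscle cells in the Cdh15 value was not tested. Cdh4 (-0.039 and -0.0019), Cdh6 (-0.058) and Cdh10 (0.11 and 0.039) completed the 12 of 23 cadherin genes that were tested. The cadherin median was -0.039 and turned to 0.046 without array 3.

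Desmosomal genes had small ratios, and all 9 of their probes were below 0 on array 1. Of the 11 genes on the array only Dsc2, Dsg2, Dsp and Jup passed the filter, with 9 probes. The 3 probes of desmocollin 2 (Dsc2) were at -0.13, -0.081 and -0.056, and those of desmoglein 2 (Dsg2) at -0.12, -0.12 and -0.065. Desmoplakin (Dsp), the plaque protein that binds keratin, was at 0.080 ± 0.055 with its brighter probe (log2 intensities of 11.71, 11.83 and 11.69 in the double heterozygote pools and 11.69, 11.96 and 11.82 in the double null pools, overlapping) and at -0.0078 ± 0.068 with the other. Plakoglobin (Jup), which also binds classical cadherins, was at -0.0072 ± 0.051 (SE, n = 3, 95% interval -0.13 to 0.12). The family median of -0.065 turned to 0.014 without array 1. The skin-type desmogleins and desmocollins (Dsc1, Dsc3, Dsg1a, Dsg1b, Dsg1c, Dsg3 and Dsg4) were well above background on no array in either genotype.

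The Tjp scaffolds described here were close to 0. Tjp1 (ZO-1), which links claudins and occludin to actin, had log2 intensities of 12.33, 12.47 and 12.52 in the double heterozygote pools and 12.40, 12.43 and 12.44 in the double null pools. These ranges overlapped, and the ratio was -0.015 ± 0.054 (SE, n = 3, 95% interval -0.14 to 0.11), with 0.084 ± 0.055 for a dimmer probe. Tjp3 (ZO-3) was at 0.0017 ± 0.056.

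Connexins were also close to 0. Gja1 (connexin 43), the broadly expressed connexin, had log2 intensities of 12.95, 12.92 and 12.76 in the double heterozygote pools and 12.88, 12.88 and 12.75 in the double null pools. The genotypes overlapped, and the ratio of -0.040 ± 0.049 (SE, n = 3, limma adjusted p = 0.685) had a 95% interval from -0.16 to 0.077. Connexin 45, named Gja7 on the array and Gjc1 today, had the brightest connexin probes, at -0.027 ± 0.057 and -0.073 ± 0.051. The entry named Gjc1 on the array is Gjd3 today and was at 0.10 ± 0.068.

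Of the Gjb genes, Gjb5 was at -0.078 ± 0.056 (SE, n = 3, limma adjusted p = 0.468) and its pools did not overlap, at 9.43, 9.40 and 9.39 in the double heterozygote and 9.25, 9.37 and 9.37 in the double null (log2 intensities). Gjb6 (connexin 30) was at 0.15 ± 0.050 (SE, n = 3, limma adjusted p = 0.185), with array ratios of 0.12, 0.12 and 0.19. Gjb2 (connexin 26), whose probe lies 24.5 kb from that of Gjb6 on chromosome 14, was at 0.051 ± 0.054. With median centring in place of loess Gjb6 turned to -0.13, Gja1 to 0.18 and the dimmer Gja5 probe to -0.47. Of 17 connexin genes on the array 10 were tested.

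**Figure D3:**
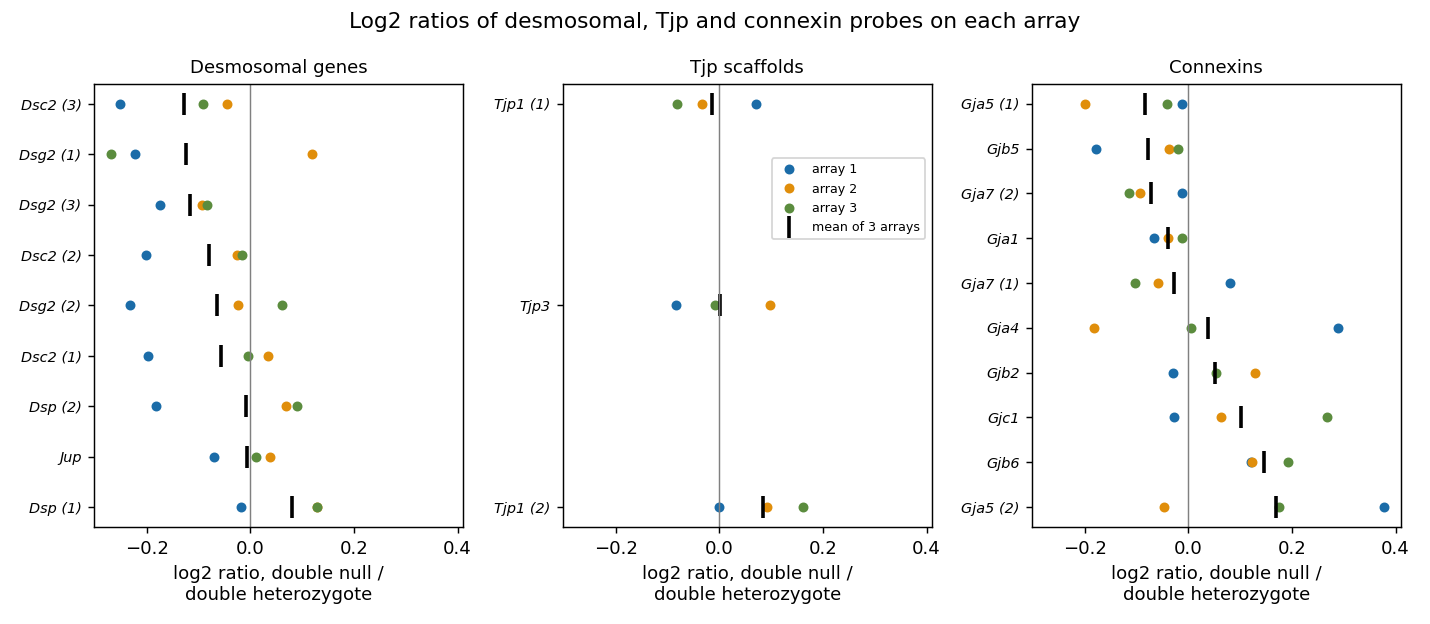
Log2 ratios (double null over double heterozygote) of 9 desmosomal, 3 Tjp and 10 connexin probes, sorted by mean; each point is 1 array and the black bar is the mean of 3 arrays. The means drawn lie between -0.13 (Dsc2) and 0.17 (Gja5), and array 1 is the lowest point for most desmosomal probes.

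Genes that work with the members gave 0 calls as well. Outside the members, 6 lists of junction partners, polarity proteins, further cadherin superfamily genes and cadherin repressors held 150 tested probes of 79 genes. Of these, 0 passed with limma (lowest adjusted p = 0.0961), and at an unadjusted p under 0.05 10 were lower (6.67%) and 14 higher (9.33%), beside 8.37% and 11.9% of all probes. Their median was 0.0063.

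The catenin and plakophilin probes were read beside the shares of all tested probes at an unadjusted p under 0.05, 8.37% lower and 11.9% higher. The brightest probe of β-catenin (Ctnnb1), which binds cadherin tails and carries Wnt signals, was at 0.27 ± 0.067 (SE, n = 3, limma adjusted p = 0.108), but its other probes were at 0.018 and -0.031. The probes of α-catenin (Ctnna1), which links this complex to actin, were at -0.057 and 0.015, and those of Pkp4 at 0.068 and 0.098. Of the 28 probes of the list, 0 were lower and 4 higher at that p: besides Ctnnb1 these were Pkp2, a desmosomal plaque gene, at 0.28 ± 0.064 (SE, n = 3, limma adjusted p = 0.0961), Ctnna2 at 0.20 and Vcl at 0.13. Other probes of Ctnna2 were at 0.093 and 0.042, and another of Vcl was at 0.018. Of the 20 nectin and JAM probes 1 was lower and 1 higher, and F11r (JAM-A), the brightest, was at -0.095.

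Of 43 tight junction scaffold and polarity probes, 2 were lower and 7 higher at an unadjusted p under 0.05 (8.37% and 11.9% of all tested probes). The genes of highest intensity were Amot at -0.099, Crb2 at -0.034, Prkci at 0.044 and Magi1 at -0.011 and 0.052. The 2 lower probes, named after their values were seen, were those of Crb3, an apical polarity gene of epithelia, at -0.26 ± 0.063, and Cgn (cingulin), a cytoplasmic tight junction protein, at -0.21 ± 0.053. A second Cgn probe was at 0.13 ± 0.059, so the probes of that gene disagreed. The 7 higher probes were 2 of the 3 of the cingulin relative Cgnl1 (0.20 and 0.17, the third at 0.15) and 1 each of Pard6b (0.19), Amotl1 (0.16), Prkcz (0.15), Pard6a (0.14) and Pard3 (0.12). Cy3 signal of the Cgnl1 probe at 0.17 cleared background on 1 array. That probe thus passed the filter only through the double null, where it was higher. Its place among the 7 is a description and not support for a difference. Pard6b, Amotl1, Prkcz and Pard3 had other probes nearer 0 or below it. In the list of other cadherin superfamily genes 3 of 32 probes were lower and 1 higher. Among the lower was a Fat3 probe at -0.24, whose Cy5 signal cleared background on 1 array. That probe passed the filter only through the double heterozygote, where it was higher, so its place is a description. Brighter Fat3 probes were at 0.11 and -0.023. Celsr1 was at -0.073, and the brightest Fat1 probe was at -0.19 with its other probes at 0.042 and 0.010. Panx1, the pannexin channel gene, was at -0.16 with its brighter probe and 0.084 with the other.

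In the list of cadherin repressors and epithelial regulators, 3 of 25 probes were lower and 1 higher at an unadjusted p under 0.05. Over all tested probes these shares were 8.37% and 11.9%. The Zeb1 probe was at 0.011 and the brightest Zeb2 probe at -0.042, both genes known as repressors of Cdh1. Of the 4 probes named Tcf3 on the array, those of today's Tcf3 were at -0.10 and -0.096, and those of today's Tcf7l1 were at -0.027 and -0.15, the last being 1 of the 3 lower probes. Grhl2, a transcription factor gene that maintains epithelial junction genes, was at -0.16 ± 0.066 with its brighter probe and -0.096 with the other. That brighter probe was another of the 3 lower ones. The remaining lower probe was the dimmer of Grhl1, at -0.21 ± 0.070, and the brighter Grhl1 probe was at -0.20 ± 0.098. The 1 higher probe, named after its value was seen, was that of Snai2, another repressor of Cdh1, at 0.41 ± 0.12 (SE, n = 3, limma adjusted p = 0.144), with array ratios of 0.81, 0.24 and 0.19. Snai2 is also expressed in mesenchyme and neural crest, and the part of those cells in its value was not tested.

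The 250 bases before the start of the neighbouring genes Cldn3 and Cldn4 are printed because this pair had some of the lowest ratios of the members. They are RefSeq windows on GRCm38.p6, 5′ to 3′ along the gene, and capitals mark CAGGTG or its reverse complement CACCTG, an E-box that repressors of the Snai and Zeb families bind.
Cldn3, chr5:134985964-134986213, plus strand: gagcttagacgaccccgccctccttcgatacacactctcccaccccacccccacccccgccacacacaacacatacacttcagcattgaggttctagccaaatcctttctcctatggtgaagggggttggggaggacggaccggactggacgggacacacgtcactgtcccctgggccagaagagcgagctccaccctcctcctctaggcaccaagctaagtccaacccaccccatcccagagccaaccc
Cldn4, chr5:134946935-134947184, minus strand: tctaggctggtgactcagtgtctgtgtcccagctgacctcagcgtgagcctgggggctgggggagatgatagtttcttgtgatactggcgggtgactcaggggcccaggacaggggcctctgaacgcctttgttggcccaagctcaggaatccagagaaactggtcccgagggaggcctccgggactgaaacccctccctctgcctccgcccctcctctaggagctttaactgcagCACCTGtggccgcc
The Cldn4 window held 1 match, beginning 14 bases before the start, and the Cldn3 window held 0. Windows were given for 26 of the 43 tested genes, 34 windows in all, of which 8 held a match (23.5%), against 17.2% of all 32851 windows. Besides Cldn4, 1 window each of Cldn7 and Ocln held 2 matches. A window each of Cldn6, Cldn14 and Gjb2 held 1, as did both Tjp3 windows, while those of Cldn10 and Cldn5 held 0. Genes with a match had ratios on either side of 0. A match describes these letters and is not evidence of binding.

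Facts of the whole arrays bear on these values as follows. Spots that cleared background numbered 26452 to 28258 for the double heterozygote and 27284 to 29177 for the double null. The single Fgf3 probe had a log2 ratio of -0.48 ± 0.12 and the Fgf10 probe 0.14 ± 0.085 (SE, n = 3, limma adjusted p = 0.121 and 0.386), and whether either lies in a deleted part was not given. No member was saturated, and the brightest had a mean log2 intensity of 13.60, below the range over 15 where 222 of the 310 probes called higher lay. Members were dim compared with all tested probes (median log2 intensity 8.28 against 9.66), and the offset of 50 added to every signal draws the ratios of dim probes towards 0.

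**Figure D4:**
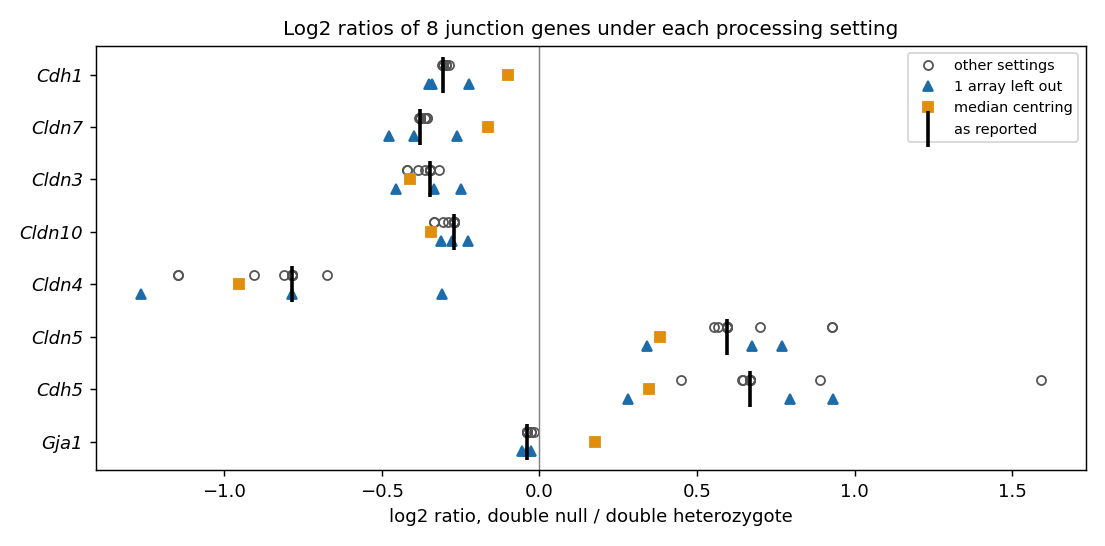
Log2 ratios (double null over double heterozygote) of 8 members under each processing setting: the black bar is the value as reported, blue triangles leave out 1 array, the orange square is median centring without loess, and open circles are the other settings. Cdh1 and the 4 claudins below it stay left of 0 and Cldn5 and Cdh5 right of 0 in every setting drawn, while Gja1 moves to 0.18 with median centring.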

How the data were processed

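Total RNA of each pool was amplified and labelled with Agilent's 2-colour low-input kit and hybridised to 3 arrays, per the labels' protocols. Spot intensities, median local background intensities, processed intensities and log10 ratios of Cy5 over Cy3 are as deposited by the authors, from Agilent Feature Extraction 9.5.1.1 per the submitters' processing notes. The log2 ratios in the authors' deposited table equalled the scanner's log10 ratios converted to log2 within 2.01e-06 (column medians -0.012, -0.0082 and -0.0031), which settles its scale and direction. Probe positions are on mm7, per the file headers.

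Intensities were corrected with normexp (offset 50) and loess within arrays (span 0.3, controls given weight 0). Outlier spots (143 to 175 an array) were dropped, and spots of a probe were averaged. Tested probes cleared background on each of the 3 arrays in the Cy3 channel, or on each in the Cy5 channel. A reading of that rule which lets the channel differ between arrays keeps 61 member probes, not 60. Every probe was fitted with limma 3.58.1 in R 4.3.3 (lmFit, intercept only, eBayes, prior degrees of freedom 4.53), with two-sided p-values adjusted by Benjamini-Hochberg over all 25506 probes. Channel intensities are the loess values after Aquantile scaling. The number of arrays limits the precision. On simulated ratios for 25506 probes, 82 of 100 changes of 0.5 and 97 of 100 changes of 1 on the log2 scale were called, with 10 calls among 25306 unchanged probes. These ratios were independent normal draws with variances from the fitted prior, so the counts are not a detection rate for the members. Cldn4, Cdh5 and Cldn5 had ratios beyond 0.5 in size but SE of 0.31, 0.22 and 0.15, and were not called.

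Each array pairs 1 pool of each genotype, so the ratio carries the pairing. The other fit treats channels separately and ties those of a spot by an estimated correlation of 0.51. The pools are biological replicates per the labels. Names were matched to RefSeq records of GRCm38.p6, and 5 of the 121 member probes carry another symbol today. Members described in detail were those with an unadjusted p under 0.05 and one sign on all arrays, the largest rise and fall of each family, and Cdh1, Cdh2, Cdh5, Cldn5, Cldn6, Cldn7, Gja1, Tjp1, Ocln, Dsp and Jup. From each other junction list, genes among the 4 of highest mean intensity were named. Crb3, Cgn, Cgnl1, Pard6b, Amotl1, Prkcz, Pard6a, Pard3, Pkp2, Ctnna2 and Vcl were named after their values were seen. So were Fat3, Grhl1, Snai2, Myod1 and the examples from marker lists. Some members are counted but not reported here by name. The members and lists were chosen with earlier results of these data known. Alternatives were another offset, the processed signals, the series table, other normalizations, probe filters, 1 probe per gene, a limit to log2 intensity 15, a prior trend, array weights, separate channels, each array left out, adjusted p under 0.10 and outlier spots kept.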

Additional observations from a re-analysis of the deposited data

How the results depend on the processing

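Of 24 member probes described in detail, Cdh1, Cldn3, Cldn4, Cldn7 and Cldn10 stayed below 0 and Cldn5 and Cdh5 above 0 in all alternatives run for them. The count of members past the threshold, 0 in the reported fit, was 35 (28 lower, 7 higher) with median centring and 2 with an intensity trend. It was 1 for channels fitted apart (no replicate block, with the channels of a spot tied by a correlation). At adjusted p under 0.10 the count was 3 (Cdh1, Cldn7 and Cldn10). It was 0 in each fit without 1 array (9 to 16 at an unadjusted p under 0.05 with limma). Over all probes, the 384 calls (80.7% higher) became 199 (90.5% higher) with offset 16. They became 0 with the processed signals (4419 at an unadjusted p under 0.05 with limma). With the series table they also became 0 (4469 at an unadjusted p under 0.05 with limma). Calls numbered 13923 (45.3% higher) with median centring and 13 (100% higher) with loess of span 0.1 fitted on probes above background. There were 21 (95.2% higher) up to intensity 15, 993 (64% higher) with a trend and 873 (66.4% higher) for channels fitted apart. At adjusted p under 0.10 there were 1081 (65.1% higher), and with 1 array left out 86 (without array 3) to 308. The member median was -0.15 with median centring and -0.014 without the filter, where 121 probes enter. Signs turned with median centring for Tjp1 (0.17, dimmer probe -0.30), Cldn6 (0.033), Ocln (-0.23), Gja1 (0.18), Gja5 (-0.47), Gjb6 (-0.13) and the dimmer Dsp probe (0.10). Median centring leaves any dependence of the ratio on intensity in place. Ocln was also at -0.027 with the processed signals and the series table and -0.0053 with that loess setting, which changes both the span and the probes used. With 1 array left out, Ocln ranged from -0.023 to 0.062, the brighter Tjp1 probe from -0.058 to 0.018, the dimmer Dsp probe from -0.057 to 0.079 and Jup from -0.030 to 0.025, and the dimmer Dsp probe was at 0.00066 with array weights. The cause of these turns was not tested.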
